A study of Apis mellifera with 36 samples.

Results

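Long non-coding RNA (lncRNA) genes that lie whole inside an intron of another honeybee gene were followed in single embryos of both sexes. A gene was counted as a member when all its annotated transcripts were of type ncRNA and its whole span fell between consecutive exons of 1 transcript of another gene, on either strand. The deposited read table held 12365 genes, of which 643 met this rule, among them LOC102655096 (gene9670), and 2061 were annotated lncRNA genes of any position.

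The 36 libraries were 36 single embryos of the western honeybee, Apis mellifera, collected 24, 48 and 72 h after laying from 2 mated queens. Each queen laid the female (worker) embryos, which are fertilized and diploid, and the male (drone) embryos, which are unfertilized and haploid, and 3 embryos were sequenced for each queen, sex and time, so that each sex and time had 6 embryos. The embryos received no treatment, and the queen was also the sampling batch, so queen and batch cannot be told apart. The time of laying was known only to within a window that the labels give as 2 h and the methods as 3 h.

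A gene inside an intron is transcribed within the territory of its host and, when it lies on the opposite strand, is read in the opposite direction to it. Nested lncRNAs are known in insects and vertebrates both as separately controlled transcripts and as RNAs that act on their host. In embryos the first RNAs come from the mother and are cleared as the embryo's own genome becomes active.

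All 643 members lay on the strand opposite to their host, so same-strand and opposite-strand members could not be compared. The annotation held 978 lncRNA genes inside introns, of which 318 shared the strand of a host and 660 ran only opposite to theirs. The read table held 0 of the 318 and 643 of the 660 (97.4%). The same gap was present in genes of other kinds: of lncRNA genes nested anywhere in another gene on its strand 1.54% were in the table, and of protein-coding genes nested in this way 2.53%, against 97.3% of the protein-coding genes not inside another gene. Expression of the same-strand class was therefore not analysed here, and the members were instead set beside the 1418 lncRNA genes outside introns, the 10150 protein-coding genes and their own hosts.

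The members sat on all 16 linkage groups of the Amel_4.5 build and 9 lay on unplaced scaffolds. They lay in 431 hosts, of which 308 held 1 member and 10 held at least 5, and the host was protein-coding for 614 members. The first intron of the host held 291 members (45.3%). Their spans ran from 310 to 121099 nt with a median of 2643 nt, inside introns with a median length of 27714 nt, and the median exon length was 1615 nt. An exon of 58 members overlapped an exon of another gene on the opposite strand. For those the counts of both genes cannot be told apart unless counting used strand, which is not given in the sources used here. If counting ignored strand, reads of unspliced host RNA would also be counted on any member that lies in that intron. The part of such reads in the counts was not tested.

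The libraries held 1195774 to 12808580 counts, and those of the 72 h males were the shallowest, at 1195774 to 2008560. One library stood apart from its group: in queen 1 male 48 h embryo 6 the 9 genes matched by segmentation terms summed to 1233 CPM (normalized counts, scaled to library size), against 3241 to 6547 in the other 48 h males. These genes summed to 115 to 193 CPM in the 72 h females and to 7776 to 12285 in the 72 h males. BicC, an RNA-binding protein of the Bicaudal-C family, made up most of the mean sum in males of 48 h (mean 3527 CPM) and 72 h (mean 8319 CPM). BicC, BicD and a bicaudal C-like gene were matched only because the word bicaudal holds the term caudal. The sums are therefore no measure of the segmentation genes alone. Engrailed (En), a segment polarity factor, had 0 counts in all 72 h males and a mean of 18.7 CPM in the 72 h females. The 14 muscle genes summed to 493 to 670 CPM in the 72 h females and to 1174 to 1962 in the 72 h males. Mhc2, a myosin heavy chain, made up most of the male sum (mean 1449 CPM, against 273 in the 72 h females and 859 in the 24 h females), while TpnCI, a troponin C, was the other way round (249 in 72 h females and 24.8 in 72 h males). The 38 cuticle genes overlapped at that age, at 175 to 326 and 192 to 248 CPM. The 17 genes matched by name as cytosolic ribosomal proteins took a mean of 2.83% of counts in 72 h females and 0.180% in 72 h males. The 3 genes of the mitochondrial genome in the read table took 0.00713% and 0.0273%. The part that such differences in stage, tissue or RNA quality had in the results below was not tested.

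Far more members were detected in females than in males from 48 h on. At 24 h 189 to 209 members exceeded 0.1 RPKM (reads scaled by gene length and library size) in a female embryo and 185 to 201 in a male embryo. At 48 h the ranges were 324 to 373 in females and 164 to 180 in males, and at 72 h 354 to 409 and 164 to 202. The sexes overlapped at 24 h and were apart at both later times. When each library was thinned to the smallest total, the members with at least 1 count at 48 h numbered 270 to 300 in females and 157 to 181 in males, and at 72 h 298 to 338 and 192 to 246. Thinning equalised total counts and not composition, with mean TMM factors of 1.48 in 72 h females and 0.62 in 72 h males. The share of members detected had a mean of 31.1% ± 1.02 (SD, n = 6) in 24 h females and of 59.6% ± 2.99 in 72 h females. For lncRNA genes outside introns the same means were 49.2% and 72.7%, and for protein-coding genes 78.1% and 88.4%. The 72 h males were lower in every class, at 27.7% of members, 40.8% of lncRNA genes outside introns and 74.2% of protein-coding genes.

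**Figure D1:**
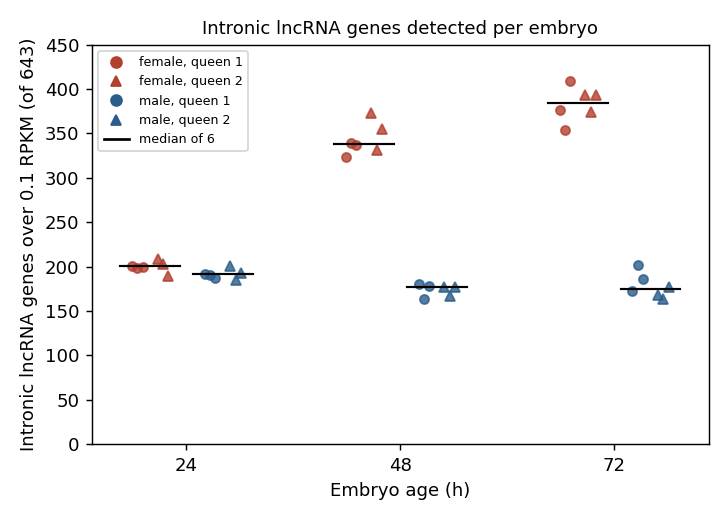
Number of the 643 intronic lncRNA genes over 0.1 RPKM in each embryo (vertical axis, genes) by age in hours, females in red, males in blue, circles for queen 1 and triangles for queen 2, with the median of 6 embryos as a line. The 72 h females sit between 354 and 409 and the 72 h males between 164 and 202.

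Single members were scarce in counts. With LOC102655096 taken out of both the members and the total, the remaining members took 0.183% to 0.321% of the counts left in an embryo. The sexes and times were close together. The median member had 0 RPKM in every 24 h embryo and in every male of all ages, and 0.178 ± 0.022 RPKM (SD, n = 6) in 72 h females. The 75th percentile over members was 0.788 ± 0.091 RPKM in 72 h females and 0.137 ± 0.022 in 72 h males. As TMM-normalized CPM per kilobase of exon, which corrects for composition, the order turned, at 0.805 ± 0.055 in 72 h females and 0.867 ± 0.178 in 72 h males. The library size behind the deposited RPKM, worked out from genes with at least 1000 counts, was 3.29 to 5.07 times the total of gene counts in the 72 h males and 1.23 to 2.17 times in the other groups. Every member had a count in at least 1 embryo, and 65 had a count in all 36.

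Of the 643 members 248 passed the low-count filter and were tested, and 395 were not. The tested members had longer exons (median 2215.5 against 1321 nt). A member that passed only through the group in which it was high could hardly fail to differ, so the counts of calls below describe the tested members and no others. A call required an adjusted p under 0.05 and a change of over 2-fold in edgeR's quasi-likelihood test, fitted to all 9575 genes that passed and adjusted over them.

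At 24 h no tested member passed the test between the sexes. The edgeR test called 0 members in either direction, while over all tested genes 0.0104% were higher in females and 0.0836% lower. An unadjusted p under 0.05 in that test was reached by 15 of the 248 tested members and by 1446 of all 9575 tested genes. DESeq2 called 3 members lower in females at 24 h, and the exact test of the 2 groups called 2.

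At 48 h 117 tested members (47.2%) were higher in females and 82 (33.1%) lower, against 33.7% and 27.6% of all tested genes. In 153 of these 199 calls (76.9%, against 86.4% of the calls over all genes) the 6 female embryos all lay on 1 side of the 6 male embryos, and 188 had the same direction in each queen. The median log2 ratio of female to male was 0.82 over the tested members and 0.18 over all tested genes, and 1.35 and 0.78 when libraries were scaled by their totals alone. With libraries thinned to the smallest total the balance turned, to 36 higher and 51 lower. The low-count filter was run again on the thinned counts, so the members tested can differ from those above. The matching shares over all genes were not worked out.

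At 72 h 93 tested members (37.5%) were higher in females and 87 (35.1%) lower, against 38.2% and 26.8% of all tested genes. The share higher was near that background. Of these 180 calls 118 (65.6%) had no overlap between the sexes, against 83.9% over all genes. The median log2 ratio was 0.48 over the members and 0.41 over all tested genes, which scaling by library totals moved to 1.71 and 1.64, and that scaling raised the share of the calls that were higher in females from 51.7% to 68.5%. Of the 248 tested members 79 (31.9%) were higher in females at both ages and 70 (28.2%) lower at both, against 25% and 18.7% of all tested genes. From lower to higher went 2 (0.806%, all genes 1.51%) and from higher to lower 3 (1.21%, all genes 1.21%).

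**Figure D2:**
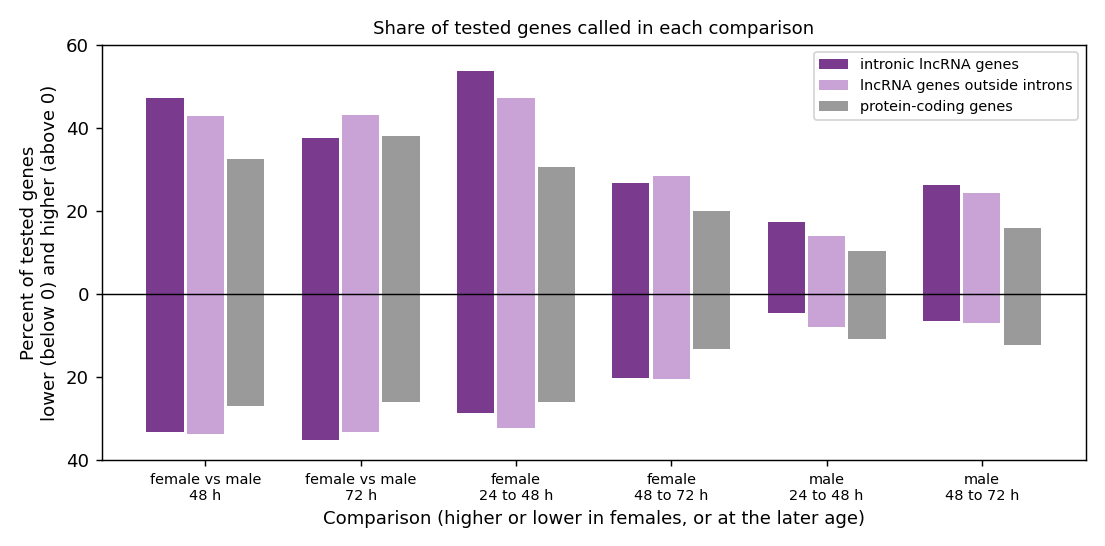
Percent of tested genes called higher (above 0) and lower (below 0) in 6 comparisons, for the 248 tested intronic lncRNA genes, the 763 tested lncRNA genes outside introns and the 8509 tested protein-coding genes. Intronic lncRNA genes had 47.2% higher and 33.1% lower in 48 h females against males, and the lncRNA genes outside introns 42.9% and 33.6%.

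LncRNA genes outside introns gave similar shares. Of the 763 tested, 327 (42.9%) were higher in females at 48 h and 256 (33.6%) lower, and at 72 h 328 (43.0%) were higher and 253 (33.2%) lower. Of the 8509 tested protein-coding genes 32.5% were higher and 26.8% lower at 48 h. Whether the members differed from the lncRNA genes outside introns was not tested.

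The time step with the most calls was that of females from 24 to 48 h. In that step 133 tested members (53.6%) rose and 71 (28.6%) fell, against 32.4% and 26.5% of all tested genes, and 168 of the 204 calls (82.4%) had no overlap between the ages, against 92.3% of the calls over all genes. With libraries thinned to the smallest total, and filtered again, the balance of that step turned, to 39 up and 47 down. The shares over all genes after thinning were not worked out. From 48 to 72 h in females 66 rose and 50 fell (all genes 20.7% and 14%). In males 43 rose and 11 fell from 24 to 48 h (all genes 10.9% and 10.4%), and 65 rose and 16 fell from 48 to 72 h (all genes 16.7% and 11.6%). The exact test of the 2 groups called 10 up and 9 down in the last male step, and thinning left 15 and 9, both without shares over all genes. The male steps leaned on the scaling: with library totals alone the share of calls that rose went from 79.6% to 57.4% in the first step and from 80.2% to 66.2% in the second. The interaction of sex and time called 155 members in the first step, 79 with a higher and 76 with a lower log2 change in females (all genes 29.3% and 26.5%). In the last step it called 28 and 59 (all genes 23.3% and 20.5%).

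LOC102655096 was by far the most counted member. It lies at linkage group 12, 6491795 to 6511341 on the minus strand of Amel_4.5, has 143 nt of exon, and sits in intron 1 of 22 of LOC724292, the honeybee gene like disks large 1, which in Drosophila encodes a scaffold of cell polarity and synapses. Its TMM-normalized CPM (counts scaled to library size after the trimmed-mean factors of edgeR) ran from 569.5 through a median of 805.9 to 1428 in 24 h females, and from 762 through 921 to 1658 in 24 h males. The sexes overlapped at that age and the log2 ratio of female to male was -0.29 ± 0.24 (SE, adjusted p = 0.596).

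In 48 h females it reached 2584 to 4284 CPM with a median of 3208, and in 48 h males 6864 to 43284 with a median of 28674. The lowest 48 h male was queen 1 embryo 6, and the other 5 held 21831 CPM or more. In 72 h females it stood at 1980 to 3260 CPM, and in 72 h males at 72304 to 186101. The sexes did not overlap at 48 or 72 h, with log2 ratios of -3.07 ± 0.26 (adjusted p = 6.41e-14) and -5.23 ± 0.29 (adjusted p = 7.58e-20). By library totals alone these log2 ratios were smaller in size, at -2.47 and -3.99. It was the most counted of all genes in the table in each of the 6 males of 72 h, where it took 4.58% to 11.1% of all counts and 95.5% to 97.5% of the counts on members. In females it rose from 24 to 48 h (log2 change 1.95 ± 0.25) and the step to 72 h did not pass (-0.23 ± 0.24, adjusted p = 0.402), while in males it rose in both steps (4.73 ± 0.28 and 1.93 ± 0.25). By library totals alone the last male step of LOC102655096 was 1.54, as its mean share of counts went from 2.25% to 6.62%, and in RPKM the males overlapped, at 26912 to 110833 at 48 h and 90933 to 157273 at 72 h. The steps differed between the sexes, with interaction log2 values of -2.78 ± 0.35 and -2.16 ± 0.35.

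LOC102654720 (gene3291) followed LOC102655096 in all 36 embryos at a far lower level. It lies on linkage group 4, 2323291 to 2329178 on the minus strand, in intron 1 of 2 of LOC102655315, like mitochondrial pyruvate carrier 1, which brings pyruvate into mitochondria. It had 4.59 to 13.5 CPM in 24 h females, 6.57 to 14.8 in 24 h males, 23.4 to 43.5 in 48 h females and 71.3 to 392.8 in 48 h males. At 72 h it had 23.1 to 38.0 CPM in females and 677.5 to 1634.5 in males. Its lowest 48 h male was again queen 1 embryo 6, and the sexes were apart at 48 h (log2 ratio -2.88 ± 0.26) and 72 h (-5.10 ± 0.28).

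For each count on LOC102654720 there were 81.2 to 188 counts on LOC102655096, with a median of 103 over the 36 embryos and a range of 101 to 114 in the 72 h males. Across these embryos the log2 CPM of the genes had a Pearson r of 0.997, the highest of LOC102655096 with any of the 9575 tested genes. LOC102656004 (gene5801), a member in intron 1 of LOC102655143, like hormone receptor 4, came next with r of 0.991, and it had 74.9 to 231.5 CPM in 72 h males and 2.40 to 6.19 in 72 h females. By Pearson r LOC102656004 was followed by LOC725792 (0.991) and LOC100578841 (0.990), which are not members, and by Spearman rho the closest were the non-members LOC726654 and LOC725792, with LOC102654720 at rank 3 and LOC102656004 at rank 5. The genes were looked for after their values had been seen, apart from LOC102654720 being named by its male step. The embryos share 6 levels of sex and time, so these r values are descriptions. Whether these genes share sequence was not tested, since no genome was used.

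**Figure D3:**
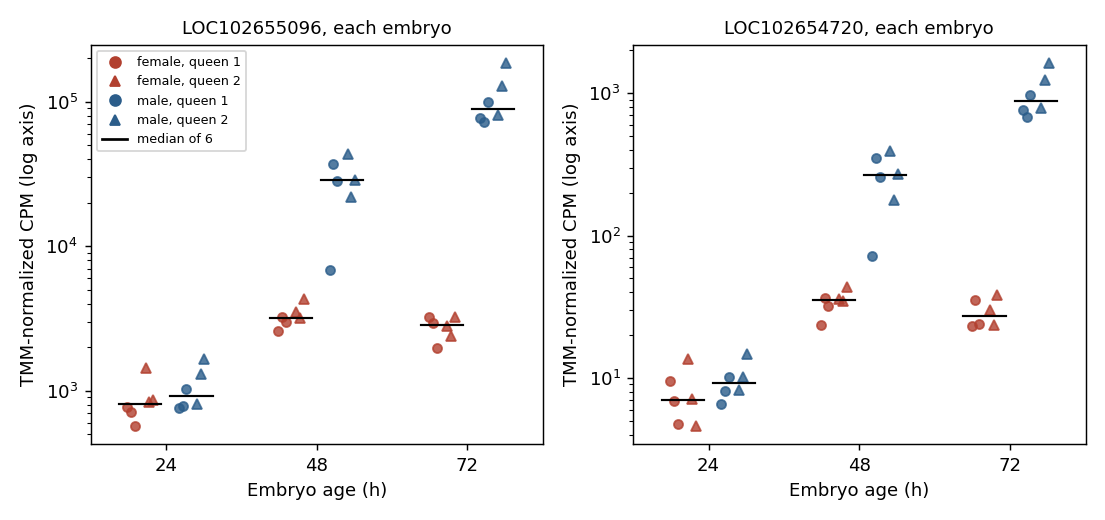
TMM-normalized CPM (log axis) of LOC102655096 and LOC102654720 in each embryo by age in hours, females in red, males in blue, circles for queen 1 and triangles for queen 2, with the median of 6 as a line. In 72 h males LOC102655096 stood at 72304 to 186101 CPM and LOC102654720 at 677.5 to 1634.5.

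A first group of members was at or near 0 counts at 24 h and high in females at a later age. LOC102654991 (gene8921), on linkage group 11 at 10222451 to 10231631, lies in intron 11 of 14 of LOC410320, a whirlin-like gene of the PDZ scaffold family. It had 0 counts in all 24 h females, 151 to 348 CPM with a median of 238 in 48 h females and 42.4 to 72.4 in 72 h females. In males it had 0 to 1.61 CPM at 48 h and 0 to 21.7 at 72 h. The 48 h females stood at least 807-fold above the floor of 3 counts per library at 24 h, and the log2 ratio to 48 h males was 10.03 ± 0.52 (adjusted p = 2.65e-19). All 5 counts of the 48 h males were in queen 1 embryo 8, and without it the log2 ratio of LOC102654991 was 13.78.

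LOC102656910 (gene3173), in intron 5 of 14 of the uncharacterized LOC408725, showed the same order. It had 0 counts in 24 h females and 49.4 to 62.7 CPM in 48 h females, at least 187-fold above the floor, and 0 to 0.522 CPM in 48 h males. In 72 h females it had 11.1 to 66.5 CPM with a median of 19.5, where the highest embryo stood apart. The 72 h males held 2 counts in all, a ratio of 77.4 with a 95% counting interval of 21.4 to 639.

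LOC102653770 (gene5915) lies in intron 1 of 8 of Amph, the gene of amphiphysin, which bends membranes. It had 0 counts in every 24 h embryo of either sex, then 25.2 to 46.7 CPM in 48 h females and 17.1 to 44.2 in 72 h females. In males it had 0 to 0.645 CPM at 48 h and 0 counts at 72 h. The 48 h females stood at least 122-fold above the 24 h floor, and the 72 h females at least 9-fold above the floor of the much shallower 72 h males. Amph itself moved the other way, with log2 ratios of female to male of -2.11 at 48 h and -2.93 at 72 h.

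LOC102655298 (gene8161), in intron 3 of 7 of a lachesin-like gene (LOC726017), had 7.23 to 12.3 CPM in 48 h females and 16.1 to 26.9 in 72 h females. Lachesin is a cell-surface protein of the immunoglobulin superfamily in insects. It had 3 counts in all 24 h females and 5 in all 24 h males. The 48 h males held 2 counts of it in all, a ratio of 116 with a 95% counting interval of 32.2 to 960.

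Other members were high in females at 72 h only. LOC102655734 (gene11846), on linkage group 16 at 2829903 to 2840850, lies in intron 3 of 3 of Ubx, the Hox gene ultrabithorax that sets thoracic and abdominal segment identity, in an intron of 211887 nt. It had 0 to 0.15 CPM in 24 h females, 0 to 1.95 in 48 h females and 22.5 to 32.3 in 72 h females, against 0 to 2.96 in 72 h males. The log2 change from 48 to 72 h in females was 5.48 ± 0.40 (adjusted p = 2.49e-14), and Ubx rose in the same step by 4.41. Ubx was lower in females than in males at 72 h (log2 ratio -2.11) and the member higher (4.04 ± 0.49).

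LOC102655196 (gene2807), LOC102656534 (gene5011), LOC102655294 (gene9672) and LOC102653811 (gene924) had 0 counts in all 72 h males. In 72 h females their CPM ran from 7.97 to 17, 6.72 to 15.3, 4.83 to 14.6 and 2.29 to 11.1. Given the floor of 3 counts in the shallow male libraries these levels were at least 3.87-fold, 3.51-fold, 3.16-fold and 1.94-fold higher. Exons of LOC102655196 and LOC102656534 overlap exons of their hosts, both uncharacterized. LOC102655294 lies in intron 6 of the same disks large 1-like gene as LOC102655096.

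LOC725233 (gene6044), in intron 5 of 7 of LOC725329, like the human protein C5orf22, rose in both sexes. It had 1.57 to 5.20 CPM in 48 h females and 42.7 to 112 in 72 h females, and 0 to 0.522 and 0.770 to 10.9 in males of these ages. The female embryos stayed above the male ones at 72 h (log2 ratio 3.75 ± 0.34). LOC102654663 (gene6754), in intron 2 of mmd (mind-meld, of the ADAM metalloprotease family in Drosophila), rose in females from 0 to 0.548 CPM at 48 h to 0.786 to 9.42 at 72 h.

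LOC102656453 (gene595) was high at a single time in females. It lies on linkage group 1 at 8932687 to 8937749 in intron 1 of 2 of cad, the gene of caudal, a homeobox factor of posterior patterning. It had 1.81 to 2.17 CPM in 24 h females, 20.7 to 50.7 in 48 h females and 0.0982 to 1.18 in 72 h females, while males held at most 2.51, 1.29 and 3.56 CPM at the 3 ages. The log2 change in females was 3.93 ± 0.30 from 24 to 48 h and -5.48 ± 0.34 from 48 to 72 h, and both steps differed between the sexes. The host cad did not rise with it: its log2 change in females was -1.34 from 24 to 48 h and -4.98 from 48 to 72 h.

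**Figure D4:**
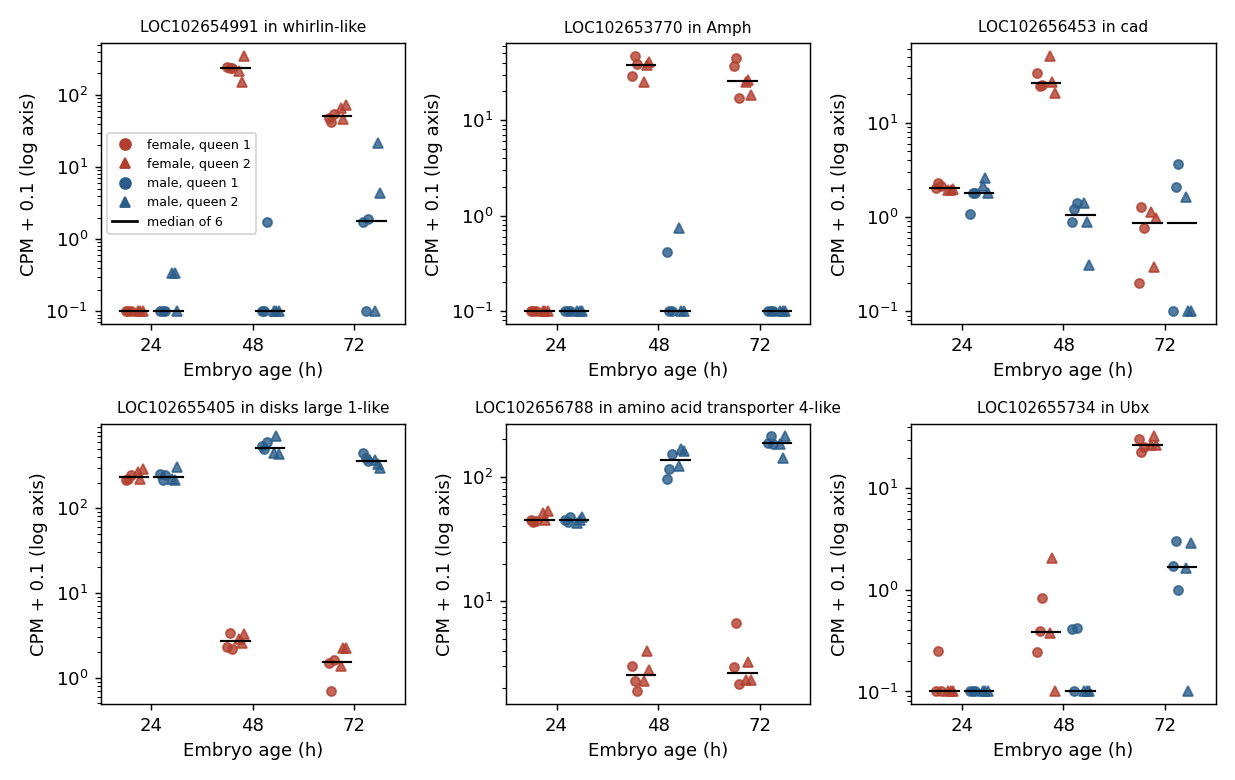
TMM-normalized CPM + 0.1 (log axis) in each embryo by age in hours for LOC102654991, LOC102653770, LOC102656453, LOC102655405, LOC102656788 and LOC102655734, females in red, males in blue, circles for queen 1 and triangles for queen 2, medians of 6 as lines. LOC102655405 fell to 2.10 to 3.23 CPM in 48 h females and stood at 429 to 702 in 48 h males.

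A second group was present at 24 h in both sexes, fell in females and stayed high in males on the TMM scale. LOC102655405 (gene9675), on linkage group 12 at 6775637 to 6794743, lies in intron 11 of 22 of the disks large 1-like gene. It had 213 to 287 CPM in 24 h females and 216 to 304 in 24 h males. In females it then fell to 2.10 to 3.23 CPM at 48 h and 0.590 to 2.16 at 72 h, while males held 429 to 702 and 295 to 449. The log2 ratio of female to male was 0.00 ± 0.14 at 24 h, -7.66 ± 0.19 at 48 h (adjusted p = 1.70e-30) and -7.90 ± 0.20 at 72 h (adjusted p = 6.00e-31), the lowest ratio of the members named at 48 h. The interaction of the first step was -7.67 ± 0.23. In RPKM the males of LOC102655405 held 23.7 to 44.6 at 48 h and 5.12 to 12.5 at 72 h, still above the females, at 0.230 to 0.350 and 0.080 to 0.310.

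LOC102655227 (gene12022), with 315 nt of exon, lies in intron 2 of 4 of LOC100577206, like Btk29A, a Tec-family tyrosine kinase. It had 3.90 to 6.64 CPM in 24 h females and 2.75 to 5.40 in 24 h males, then 2 counts in all 48 h females and 1 in all 72 h females. Males kept 3.47 to 17 CPM at 48 h and 16.8 to 30.2 at 72 h. The ratio of male to female was 221 at 48 h, with a 95% counting interval of 61.2 to 1827. In males the level rose in both steps (log2 changes 1.13 ± 0.29 and 1.35 ± 0.30) on the TMM scale, while the deposited RPKM of LOC102655227 had means of 11.1, 13.0 and 12.9 in males of 24, 48 and 72 h.

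LOC102654939 (gene2332), in an E2 ubiquitin-conjugating enzyme gene, and LOC102655065 (gene8703), whose exons overlap its uncharacterized host, behaved alike. Their log2 ratios of female to male at 48 h were -6.15 ± 0.49 and -6.03 ± 0.46. LOC102654939 had 9.06 to 15.7 CPM in 24 h females, 0 to 0.441 in 48 h females and 8.83 to 13.2 in 48 h males. LOC102655065 had 15 to 18.2, 0 to 0.419 and 5.16 to 22.4 CPM in these groups, with the highest 48 h male being queen 1 embryo 6. Without that embryo the 48 h males still stood at 5.16 CPM and above. In deposited RPKM both members fell in males over 24, 48 and 72 h. The means were 2.37, 1.105 and 0.70 for LOC102654939 and 8.41, 4.26 and 2.09 for LOC102655065.

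LOC102655223 (gene7766) lies in intron 1 of 6 of LOC409847, like 15-hydroxyprostaglandin dehydrogenase, which in vertebrates inactivates prostaglandins. It had 20.9 to 24.4 CPM in 24 h females, 0.780 to 1.37 at 48 h and 0 to 0.197 at 72 h, against 19.6 to 25.7 in 48 h and 12.5 to 33.9 in 72 h males. Its deposited RPKM fell in males, with means of 5.83, 3.32 and 1.13 at 24, 48 and 72 h. The 72 h females held 3 counts in all, a male to female ratio of 393 with a 95% counting interval of 134 to 1905. Here member and host moved together, with host log2 ratios of -6.08 at 48 h and -8.77 at 72 h beside -4.29 ± 0.22 and -8.18 ± 0.36 for the member.

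LOC102656255 (gene12229), on an unplaced scaffold in intron 7 of 8 of CYP343A1, a cytochrome P450 gene, had the next highest mean RPKM of the members, 73.3 against 40219 for LOC102655096. It fell in females from 114 to 152 CPM at 24 h to 22.4 to 77.3 at 48 h and 0.125 to 0.873 at 72 h. Males held 97.4 to 203, 259 to 463 and 141 to 199 CPM, so that the sexes were apart from 48 h on. The deposited RPKM of LOC102656255 had means of 95.2, 168 and 29.2 in males of 24, 48 and 72 h. The log2 ratio was -2.90 ± 0.21 at 48 h and -8.18 ± 0.31 at 72 h.

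LOC102656788 (gene517), in an amino acid transporter gene (LOC410741), LOC102655954 (gene243), in Awh, a LIM homeobox gene, and LOC102656539 (gene6144), in a gene like couch potato, an RNA-binding protein, were among the 10 members of highest mean RPKM and fell in females in the same step. From 24 to 48 h their log2 changes in females were -4.15 ± 0.20, -5.38 ± 0.28 and -5.36 ± 0.25. In males LOC102656788 rose in that step (1.59 ± 0.16), from 42.6 to 47.5 CPM at 24 h to 95.8 to 166 at 48 h, and stood at 140 to 210 at 72 h. Its deposited RPKM had means of 34.1, 55.6 and 29.2 in males of 24, 48 and 72 h, so on that scale it fell in the last step. LOC102655954 and LOC102656539 did not pass in that male step (log2 changes 0.43 ± 0.19 and -0.02 ± 0.19) and both fell from 48 to 72 h (-1.29 ± 0.23 and -1.13 ± 0.23).

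LOC102654329 (gene8585), in intron 2 of the uncharacterized LOC408339, fell in females from 37.0 to 49.6 CPM at 24 h to 0 to 0.750 at 48 h, a log2 change of -6.68 ± 0.36. LOC102654329 did not stay high in males in the deposited RPKM, with means of 17.2, 4.435 and 1.225 at 24, 48 and 72 h. LOC102654524 (gene5256), in intron 1 of 52 of a gene like neurobeachin, which acts in vesicle traffic, fell in both sexes: in females from 140 to 204 CPM to 2.60 to 6.40, and in males from 140 to 168 to 27.5 to 94.0. The fall was larger in females, with an interaction of -3.66 ± 0.34. LOC102653792 (gene2591), in bif (bifocal, which binds actin in Drosophila), fell in males (log2 change -1.12 ± 0.32), while the female step did not pass (0.25 ± 0.29, adjusted p = 0.424), and the steps differed by an interaction of 1.37 ± 0.44. The male call of LOC102653792 was lost in queen 1 alone (-0.999, adjusted p = 0.055 by edgeR) and after thinning (-1.09, adjusted p = 0.055).

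The remaining named members differed in the last male step or in level. LOC102655941 (gene3450), in a sestrin gene, rose in males from 0 to 1.47 CPM at 48 h to 3.08 to 8.14 at 72 h. LOC100578409 (gene5174), in NR1E1, the ecdysone-induced nuclear receptor E78, fell in males from 8.41 to 18.3 CPM to 0 to 3.56, and LOC102653679 (gene8435), in Pdi, a protein disulfide isomerase, from 2.52 to 12.3 to 0.986 to 2.45. In females LOC100578409 rose over the same step, from 8.30 to 78.8 CPM to 41.5 to 112. The interaction of that step was 3.60 ± 0.79.

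LOC100578943 (gene67), in an intron of a fruitless-like gene (LOC727299), followed LOC102656255 in mean RPKM over the 36 embryos, at 55.3. It had 50.1 to 89.0 CPM in 24 h females and 64.1 to 83.6 in 24 h males, 86.7 to 120 and 80.8 to 177 at 48 h, and 103 to 122 and 35.3 to 81.4 at 72 h. The sexes overlapped at 24 and 48 h and were apart at 72 h (log2 ratio 1.10 ± 0.18). Its exons overlap those of a further gene, gene66. LOC102656641 (gene5404), with 301 nt of exon in the glucocerebrosidase gene LOC409708, had overlapping sexes at 72 h, at 1.94 to 17.6 CPM in females and 0 to 5.39 in males.

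Members and hosts were compared in the 236 pairs with both genes tested. Reads of unspliced host RNA would enter these comparisons if counting ignored strand. At 48 h 71 pairs were called in the same direction and 59 in opposite ones, and at 72 h 61 and 58. At 48 h the host was higher in females for 36 of the 112 members that were higher, lower for 49 and not called for 27. Over all 236 pairs the host was higher in 26.7% and lower in 42.4%. For the 76 members lower in females the host was higher for 10, lower for 35 and not called for 31. The median log2 ratio at 48 h was 0.85 over the members of these pairs and -0.68 over their hosts, a host with several members being counted for each. At 72 h the host was higher for 18 of the 89 members that were higher and lower for 39. For the 81 members lower in females it was higher for 19 and lower for 43. Over all 236 pairs at 72 h the host was higher in 24.2% and lower in 45.8%. Across pairs the log2 ratios had a Pearson r of 0.18 at 48 h and 0.07 at 72 h.

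**Figure D5:**
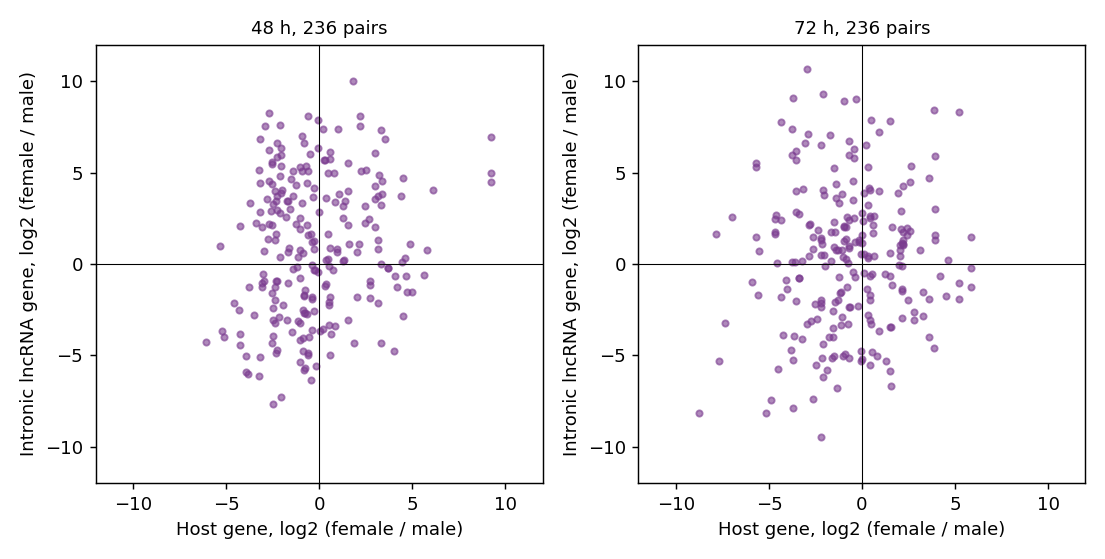
Log2 ratio of female to male of each intronic lncRNA gene (vertical axis) against that of its host (horizontal axis) at 48 h and 72 h, 1 point for each of 236 pairs. The Pearson r over the pairs was 0.18 at 48 h and 0.07 at 72 h.

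Over the 36 embryos the log2 CPM of member and host had a median Pearson r of 0.17 in 244 pairs, with a range from -0.93 to 0.99. It was over 0.5 in 66 pairs and under -0.5 in 52. The points share the 6 levels of sex and time, so a pair that differs between these groups has a large r of either sign. By mean RPKM 65 of these members exceeded their host.

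Members of a shared host also went different ways. The Btk29A-like gene on linkage group 16 held 9 members, 5 of them tested. At 48 h 4 were higher in females and LOC102655227 lower, while the host was lower (log2 ratio -2.08). At 72 h LOC102655781 was higher and LOC102655227 and LOC102655827 lower, the last going from 5.96 ± 1.25 at 48 h to -2.36 ± 0.67, and the host was lower (-2.18). LOC102655827 had at most 15 counts in any embryo, so both of its ratios rest on few counts. Of the 5 members in the disks large 1-like gene 3 were tested, and at 48 and 72 h LOC102655096 and LOC102655405 were lower in females and LOC102655294 higher, with host log2 ratios of -2.49 and -3.73.

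In sd, the gene of scalloped, a TEAD-family transcription factor, 3 of 6 members were tested and all were lower in females at 72 h, while sd was higher (2.16). Of these, LOC102654358 had log2 ratios of -2.09 ± 0.27 at 48 h and -2.97 ± 0.34 at 72 h. In tmod, the gene of tropomodulin, which caps actin filaments, 2 of 6 were tested, both higher in females at 48 h (LOC100578103 by 4.54 ± 0.31 and LOC102653713 by 3.83 ± 0.46), as was tmod (3.37). In the lachesin-like gene LOC102655298 was higher and LOC102655320 and LOC102655419 lower in females at both ages.

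The other hosts of at least 5 members were mmd, FBN2 (fibrillin 2, of extracellular microfibrils), a furin-like gene (LOC100576626), a DYRK2-like kinase gene (LOC412917) and a gene like ubiquitin-like protein 3 (LOC550921). They held 25 members together, of which 10 were tested. At 48 h 4 of these were higher in females and 5 lower, and at 72 h 5 were higher and 2 lower. In nrm (neuromusculin, a cell adhesion protein) 2 of 3 members were tested, and LOC102654291 was higher in females at 72 h (4.56 ± 0.96).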

How the data were processed

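Whole-embryo RNA was amplified with the SMART-Seq v4 kit and T7 transcription. The authors trimmed the reads, aligned them to Amel_4.5 with TopHat2 (submitters' processing notes, with bcl2fastq 2.16.0.10) and kept single alignments; a single alignment leaves near-identical copies uncounted. The deposited read counts per gene were raw, and the deposited RPKM values were reads scaled by gene length and library size, as the authors made them. How reads were counted on overlapping genes, and whether strand was used, is not given in the sources used here. The annotation was the deposited GFF3 of the same build; its start and end columns are coordinates (other) and were deposited as such.

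Members were found from the annotation by position alone. The members and lists were chosen with earlier results of these data known. Counts were tested with edgeR 4.0.16 (R 4.3.3) by quasi-likelihood after TMM scaling and filterByExpr (minimum count 10, total 15), in a joint fit of 36 embryos with 6 groups of sex and time and a queen term; the Benjamini-Hochberg adjustment ran over all 9575 genes. Each queen was also fitted alone. Standard errors are those of the log2 ratio. Nothing says that embryos were independent beyond being separate eggs, so p-values measure the spread between embryos of 2 queens. Folds against groups at 0 used a floor of 3 counts per library, and ratios over 1 to 3 counts have an exact interval for counting error only. Correlations used log2(CPM + 1).

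Named members were LOC102655096, the 10 of highest mean RPKM, and, among called members with the same direction in each queen, at least 5 CPM in the higher group and, for sexes and steps, no overlap of embryos, the 4 highest and 4 lowest log2 ratios per sex comparison and the 2 and 2 per time step or interaction; members of hosts with at least 5 were summarised. On data simulated for the 72 h comparison of the sexes (9233 genes, 200 changed) the test recovered 91% of 3-fold and 98% of 8-fold changes, and 4.55% of its calls were false. The simulation gave all embryos a shared profile and a fixed spread, with as many genes raised as lowered. It held no shift in composition like that of the 72 h libraries, so its share of false calls cannot be carried over to the calls above. Alternatives were other scalings (DESeq2 1.42.0 size factors, upper quartile, library totals), the DESeq2 Wald and edgeR exact tests, no filter, thinning, each queen alone, no queen term and leaving out each embryo.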

Additional observations from a re-analysis of the deposited data

Results flagged for a closer look

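In 9 of 110 groups of 6 embryos checked, the highest or lowest embryo lay far from the other 5; chance gives about 1 in 20. In the 24 h females queen 2 embryo 35 had 1428 CPM of LOC102655096, with the others at 569.5 to 864, and 203.6 CPM of LOC102654524, with the others at 140.2 to 157. In the 24 h males queen 2 embryo 8 had 202.7 CPM of LOC102656255, with the others at 97.4 to 114, and 83.6 CPM of LOC100578943, with the others at 64.1 to 71.4. In the 48 h females queen 2 embryo 30 had 15.7 CPM of LOC102653792, with the others at 5.58 to 8.22. In the 72 h females queen 1 embryo 15 had 66.5 CPM of LOC102656910, with the others at 11.1 to 20.2. In the 48 h males queen 1 embryo 6 had 22.4 CPM of LOC102655065, with the others at 5.16 to 11.2. In the 72 h males queen 2 embryo 24 had 131.9 CPM of LOC102654524, with the others at 33.9 to 67.1. With LOC102655096 taken out of members and total, the other members took 0.321% of its counts, with the other embryos at 0.227% to 0.258%.

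The time step differed between the sexes by the interaction test of edgeR for these members. For the step from 24 to 48 h the log2 interaction was -2.78 for LOC102655096, 12.3 for LOC102654991, 10.54 for LOC102656910, -7.67 for LOC102655405 and -7.43 for LOC102655227. For the step from 48 to 72 h it was -2.16 for LOC102655096, 9.08 for LOC102653811, 7.08 for LOC102656534, -6.22 for LOC102654991 and -6.09 for LOC102656453. Where a group was at 0 counts the size of these values depends on the prior count of the fit and is no bound on a fold.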

How the results depend on the processing

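Thinned to the smallest library, calls numbered 36 higher and 51 lower at 48 h, 40 and 44 at 72 h, 39 up and 47 down in females from 24 to 48 h, 31 and 20 in females from 48 to 72 h, 14 and 4 in males from 24 to 48 h and 15 and 9 in males from 48 to 72 h. With no filter, 212 were higher at 48 h, 145 lower at 72 h, 293 rose in females from 24 to 48 h, 114 rose and 83 fell in females from 48 to 72 h and 120 rose in males from 48 to 72 h. The edgeR exact test called 57 higher at 48 h, 57 and 44 at 72 h, 2 lower at 24 h, 78 up in females from 24 to 48 h, 23 and 5 in males from 24 to 48 h and 10 and 9 from 48 to 72 h. The fall in males from 48 to 72 h numbered 7 with DESeq2 size factors, 10 with the upper quartile and 7 with the DESeq2 Wald test, which also called 3 lower at 24 h. The fall in males from 24 to 48 h numbered 23 with library totals, 7 at an unadjusted p under 0.01 and 4 in queen 2 alone, and that p called 3 lower at 24 h. Queen 1 alone gave 28 up and 7 down in males from 24 to 48 h, and 35 up from 48 to 72 h, where queen 2 alone gave 34. Thinning, single queens and the exact test ran the low-count filter again, so the members tested can differ. The shares over all genes were not worked out for these counts. The cause of these shifts was not tested, beyond fewer counts, embryos or genes.

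Leaving out each embryo gave 0 to 1 higher and 0 to 2 lower at 24 h, and 6 to 14 falling in males from 24 to 48 h, with 6 when queen 2 male 48 h embryo 29 was left out; all other counts stayed within 1.5 times. The log2 ratio of LOC102655096 at 48 h ran from -3.26, without queen 1 male 48 h embryo 6, to -2.88. Only queen 1 males of 48 and 72 h share 2 embryo numbers, 4 and 6, which are different eggs; deviations of same-numbered embryos correlated at -0.01 and 0.03. With the replicate block, 5 members rose and 0 fell by edgeR, and 19 had an unadjusted p under 0.05. Without the block the same 4 embryos gave 0 calls of members. Over all genes, 764 were called with the block and 0 without it. The log2 change of LOC102655096 with the block was 2.30 with no call.

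The excess of detected members in females over males was 169 at 48 h and 205 at 72 h over 0.1 RPKM, 26 and 102.5 over 1 RPKM, 183 at 48 h with at least 1 count, and 121.7 and 98 after thinning, which turned it to -3.33 at 24 h from 8.5. The 75th percentile over members at 72 h was 0.65 RPKM higher in females, and 0.0626 lower as TMM-normalized CPM per kilobase (-0.0626). The log2 ratio of LOC102654991 at 48 h ran from 9.66 to 13.78 over the left-out embryos. No call of a named member reversed under any alternative. Apart from the left-out embryos, which changed none of these calls, 447 values of named members kept their call and 7 lost it. The calls lost were LOC102653792 in males and LOC102656534 after thinning, LOC102653792, LOC102654991 and LOC102653811 in queen 1 alone, LOC102656534 in queen 2 alone and LOC100578409 with the block. LOC102655096 kept its calls, and the direction of its called changes, under all alternatives apart from the block. Its uncalled step in females from 48 to 72 h changed sign, from -0.233 to 0.027 with library totals.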
